A study of Homo sapiens with 6 samples.

Results

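Serum response factor (SRF), its cofactor MKL1 and 8 genes of the contractile actin cytoskeleton were followed in SW872, an established human liposarcoma cell line. The genes were chosen by symbol, as ACTA2, TAGLN, CNN1, MYL9, TPM1, ACTN1, VCL, FLNA, SRF and MKL1, and each matched 1 of the 57773 genes in the table of counts. RNA was sequenced from 3 replicates treated with 18 μM Apatinib, a small-molecule inhibitor of the receptor tyrosine kinase VEGFR-2, for 24 h, and from 3 replicates labelled as given no treatment. The treatment protocol in the labels nevertheless names Apatinib for every sample, so the control group rests on the titles and the treatment field. Both groups were grown in RPMI-1640 with 10% FBS, and whether the control received the solvent of the drug is not given in the sources used here. The study describes the 3 samples of each group as biological replicates.

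SRF is a transcription factor that binds the CArG box, a stretch of A and T bases between CC and GG. Its partners of the MRTF family, of which MKL1 (also named MRTFA) is one, are held in the cytoplasm by monomeric actin and enter the nucleus when actin assembles into filaments. SRF with MRTF turns on genes of actin filaments, stress fibers and adhesions, while SRF with the ternary complex factors (ELK1, ELK3 and ELK4) answers ERK signaling with immediate early genes such as FOS.

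The promoters that hold a CArG box are shown because they carry the element through which SRF can act on these genes. Promoters of 250 bases before to 50 bases after a start site were taken from RefSeq (GRCh38.p14), where 8 of the 10 genes had at least 1 entry. TAGLN and MYL9 had no entry. A match to the exact box on either strand is also a match on the other. The box was found at SRF, FLNA and ACTN1, thus at 3 of 8 genes (37.5%), against 438 of 27305 genes (1.60%) in the whole table. No exact box lay in these windows of ACTA2, CNN1, TPM1, VCL or MKL1. The lines give 60 bases each, 5′ to 3′ on the strand of the gene, with the boxes in capitals.
SRF, chr6:43171209-43171268, plus strand, ending just before the start site of 1 of its 2 listed promoters: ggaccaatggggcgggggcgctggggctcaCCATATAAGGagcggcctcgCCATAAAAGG
FLNA, chrX:154374694-154374753, minus strand: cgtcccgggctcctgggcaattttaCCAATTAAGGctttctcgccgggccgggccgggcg
ACTN1, chr14:68977703-68977762, minus strand, at 1 of its 4 listed promoters: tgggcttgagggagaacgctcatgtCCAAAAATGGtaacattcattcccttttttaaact
The gene for SRF itself thus carried 2 boxes, which began 30 and 10 bases before its start site. The box of FLNA began 94 bases before the start site, and that of ACTN1 171 bases before it.

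In the untreated cells the set was dominated by the non-muscle part of the cytoskeleton. Levels were compared between genes as FPKM, fragments scaled to transcript length and to the size of the library. FLNA, which crosslinks actin filaments, stood highest in the control group with an FPKM level of 273 ± 19.8 (SD, n = 3). TPM1, a tropomyosin that runs along the filament, had 112 ± 5.59 and ACTN1, the α-actinin that bundles filaments, had 105 ± 7.17 (FPKM, SD, n = 3 each). The control replicates of TPM1 (114, 116 and 106 FPKM) and ACTN1 (101, 99.7 and 113 FPKM) overlapped, so that these neighbors did not differ beyond their spread. VCL, which links actin to adhesions, followed with 38.0 ± 0.961 FPKM (SD, n = 3). The factors themselves lay lower, with MKL1 at 8.18 ± 0.550 and SRF at 7.18 ± 0.682 FPKM (SD, n = 3 each), and again overlapped in the control group.

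The genes that mark smooth muscle were at the bottom of the set. TAGLN (transgelin) had a control level of 3.24 ± 0.484 FPKM and ACTA2 (smooth muscle α-actin) one of 1.19 ± 0.298 FPKM (SD, n = 3 each). CNN1 (calponin 1) had 0, 0.220 and 0.174 FPKM in control replicates 1 to 3. MYL9, the regulatory light chain of smooth muscle myosin, was close to the limit of detection, with 0, 0 and 1 counts after Apatinib against 1, 2 and 0 without it, so no change was tested. SW872 therefore expressed the filamin, tropomyosin, α-actinin and vinculin genes strongly and the classical smooth muscle genes of the set weakly or not detectably at this depth.

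**Figure D1:**
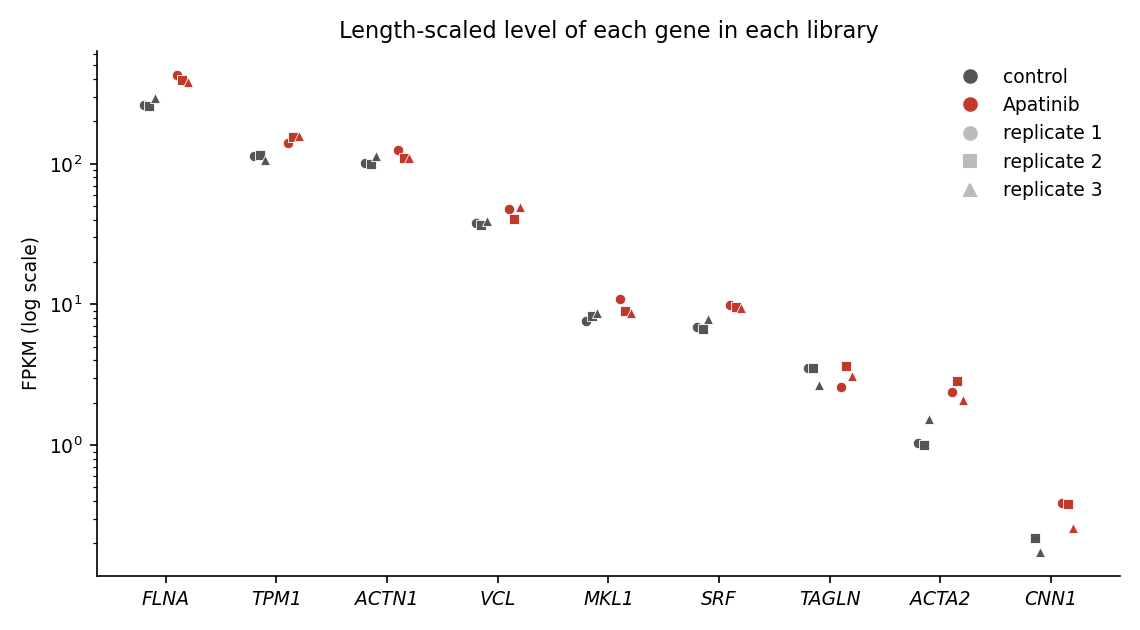
FPKM (log axis) of each gene in each library, with gray symbols for control, red for Apatinib and the shape for the replicate number. The genes span from FLNA, at 260 to 431 FPKM, down to CNN1, at 0.174 to 0.390 FPKM; CNN1 in control replicate 1 is listed at 0 and MYL9 had at most 0.0452 FPKM, so neither is drawn.

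Markers of the labelled cells were read from the same libraries. All 7 mesenchymal markers, VIM and FN1 among them, passed the filter on low counts. Of 6 adipocyte genes 3 passed it, PPARG with 859 to 1138 counts, LPL with 187 to 416 and PLIN1 with 14 to 30. The adipocyte genes CEBPA, FABP4 and ADIPOQ had 0 counts in every library. CEBPA was nonetheless listed at 0.0579 to 0.319 FPKM. Total counts were between 17043314 and 22067558 per library. Control replicates 1 and 2 were nearly alike, their counts giving a chi-square of 2.27 per gene, while the other pairs of a group gave 18.2 to 44.5. Counting noise alone would give about 1. Control replicate 3 stood apart from these controls. Of the 3 controls it lay closest to the Apatinib mean in 7 of the 9 tested genes of the set, and in 1284 of the 1866 genes called differentially expressed overall. RNA of a whole culture was sequenced, so that fewer cells expressing a gene and less RNA per cell cannot be told apart.

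The comparison of Apatinib with control asks which transcripts changed after the drug. Expression is given below as CPM, counts scaled to the size of the library with the TMM factors of edgeR. A differentially expressed gene (DEG) had to pass 2 limits, an FDR under 0.05 in the quasi-likelihood test of edgeR, adjusted by Benjamini-Hochberg over the 16290 tested genes, and an absolute log2 fold change above 0.5. FLNA was the only DEG of the set, and it rose. Of the 9 tested genes 8 had a log2 fold change above 0, and the median was 0.41 against 0.00 for all tested genes. One DEG in 9 genes compares with 11.5% of all tested genes that were DEGs (5.97% higher and 5.48% lower). With the FDR limit alone, FLNA and TPM1 passed, against 12.9% of all genes. At an unadjusted p under 0.05, 4 of the 9 genes passed, against 30.6%.

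FLNA (ENSG00000196924), whose product ties actin filaments into networks and to membrane proteins, had 5293, 4492 and 4402 CPM in Apatinib replicates 1 to 3 and 3009, 3081 and 3562 CPM in control replicates 1 to 3. Every Apatinib replicate was above every control replicate, with control replicate 3 the highest control. The mean was 1.47-fold higher, from 3217 ± 301 to 4729 ± 491 CPM (SD, n = 3 each), and the log2 fold change was 0.56 (standard error 0.135, 95% interval 0.26 to 0.85, edgeR FDR = 0.0250). The call was lost without Apatinib replicate 1 (0.47, FDR = 0.0589), without control replicate 1 (0.50, FDR = 0.136) and without control replicate 2 (0.52, FDR = 0.139). With a correction for GC content, the log2 fold change of FLNA was 0.35 and its FDR 0.0629. At 62.2%, the GC content of its longest transcript was above that of 91.6% of tested genes.

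SRF (ENSG00000112658) moved in the same direction by less than the DEG limit. Its expression was 63.6, 57.2 and 58.3 CPM with Apatinib and 41.6, 41.7 and 50.3 CPM in the control. The groups did not overlap, which held for 2856 tested genes (17.5%) with Apatinib above. The log2 fold change of SRF was 0.42 (standard error 0.127, 95% interval 0.14 to 0.70, edgeR FDR = 0.0502), so that it missed both limits. SRF became a DEG without control replicate 3, at 0.52 on the log2 scale (edgeR FDR = 0.0248). DESeq2 gave an FDR of 0.0307 at a log2 fold change of 0.42. Corrected for GC content, the value was 0.24 (edgeR FDR = 0.0950).

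MKL1 (ENSG00000196588), the actin-sensing cofactor, had 64.4, 47.9 and 50.3 CPM with Apatinib and 44.0, 46.4 and 49.2 CPM in the control. Only Apatinib replicate 1 was clearly above the controls, and the groups overlapped. Its log2 fold change was 0.22 (95% interval -0.08 to 0.53, edgeR FDR = 0.310), and 0.08 without Apatinib replicate 1. Like FLNA and SRF, MKL1 has a GC-rich transcript (61.3%), and the value was 0.02 after the GC correction.

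**Figure D2:**
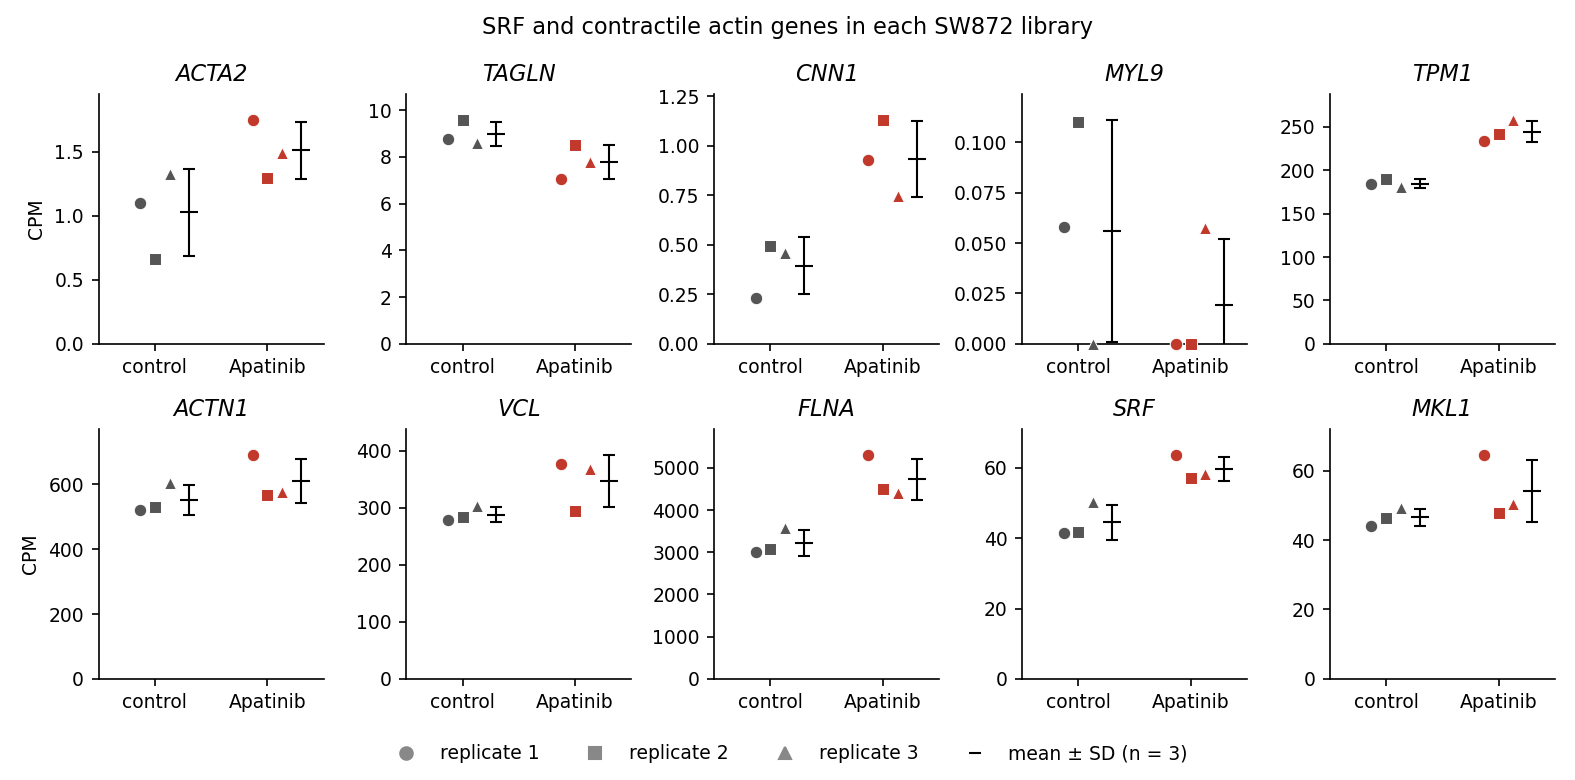
CPM of the 10 genes in each library, on linear axes that start at 0, with 3 control (gray) and 3 Apatinib (red) replicates and the mean ± SD as black bars. FLNA, TPM1, SRF and CNN1 have every red symbol above every gray one, TAGLN has every red symbol below, and MYL9 is near 0.

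Among the filament genes TPM1 (ENSG00000140416) gave the tightest replicates. Its expression was 234, 242 and 258 CPM with Apatinib and 184, 190 and 180.5 CPM in the control, without overlap. The log2 fold change of TPM1 was 0.41 (standard error 0.111, 95% interval 0.16 to 0.65, edgeR FDR = 0.0369), which passed the FDR limit and not the fold change limit. Leaving out single replicates gave values from 0.37 to 0.44, with FDR values from 0.0388 to 0.178. It was 0.41 with the GC correction (edgeR FDR = 0.0157), and the GC content of TPM1 (45.9%) lay below the median of tested genes (48.5%).

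ACTN1 (ENSG00000072110) had 690, 567 and 576 CPM with Apatinib and 522, 531 and 605 CPM in the control. Control replicate 3 was above 2 of the Apatinib replicates, and the log2 fold change was 0.14 (95% interval -0.14 to 0.42, edgeR FDR = 0.484). The value of ACTN1 was 0.05 without Apatinib replicate 1, 0.22 without control replicate 3 and 0.07 with the GC correction. VCL (ENSG00000035403) had 377, 294 and 368 CPM with Apatinib and 278, 283 and 303 CPM in the control. Here Apatinib replicate 2 fell among the controls. The log2 fold change of VCL was 0.27 (95% interval -0.02 to 0.55, edgeR FDR = 0.189), and 0.38 without Apatinib replicate 2 (edgeR FDR = 0.0479). The intervals of ACTN1 and VCL reach from near 0 to about the DEG limit.

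None of the smooth muscle genes of the set was a DEG in edgeR, and of the 3 tested only CNN1 had an unadjusted p under 0.05 (0.0137). CNN1 (ENSG00000130176), a calponin that binds actin and restrains myosin, had the largest fitted change of the set and few counts, 16, 20 and 13 with Apatinib against 4, 9 and 10 in the control. The lowest Apatinib replicate was above the highest control replicate in CPM. The log2 fold change of CNN1 was 1.21 (standard error 0.418, 95% interval 0.30 to 2.13, edgeR FDR = 0.0760), and DESeq2 gave no adjusted p for it. ACTA2 (ENSG00000107796) had 30, 23 and 26 counts in treated cells against 19, 12 and 29 in untreated cells. In CPM the groups overlapped, since control replicate 3 (1.33) exceeded Apatinib replicate 2 (1.30), and the log2 fold change was 0.54 (95% interval -0.20 to 1.27, edgeR FDR = 0.302). Leaving out control replicate 2 lowered the value of ACTA2 to 0.31, and leaving out control replicate 3 raised it to 0.78.

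The 2 deposited units differed for ACTA2. Its FPKM values were 2.39, 2.84 and 2.10 in treated cells against 1.04, 0.994 and 1.53 in untreated cells, without overlap. On log2(FPKM + 1) limma gave a difference of 0.66 (FDR = 0.0413), past both limits. How the FPKM values were made is not given in the sources used here. ACTA2 shares near-identical coding sequence with the other actin genes, and its exons overlap FAS and ACTA2-AS1 on the opposite strand in GENCODE 29. Whether the counting used strand is not given either, so the few reads of ACTA2 are uncertain.

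TAGLN (ENSG00000149591), an actin-binding protein and a classical SRF target, was the exception in sign. Its expression was 7.04, 8.52 and 7.79 CPM with Apatinib and 8.77, 9.57 and 8.61 CPM in the control. All Apatinib values were lower than all control values, as in 2553 tested genes (15.7%), but the gap was small. The log2 fold change of TAGLN was -0.21 (standard error 0.164, 95% interval -0.56 to 0.15, edgeR FDR = 0.427), -0.14 without Apatinib replicate 1 and -0.36 with the GC correction (edgeR FDR = 0.157). In FPKM the groups overlapped, with 2.61, 3.62 and 3.09 against 3.52, 3.52 and 2.68. Exons of PCSK7 overlap TAGLN on the opposite strand, and those of FLNA, TPM1, VCL and MKL1 also meet a gene on the opposite strand.

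**Figure D3:**
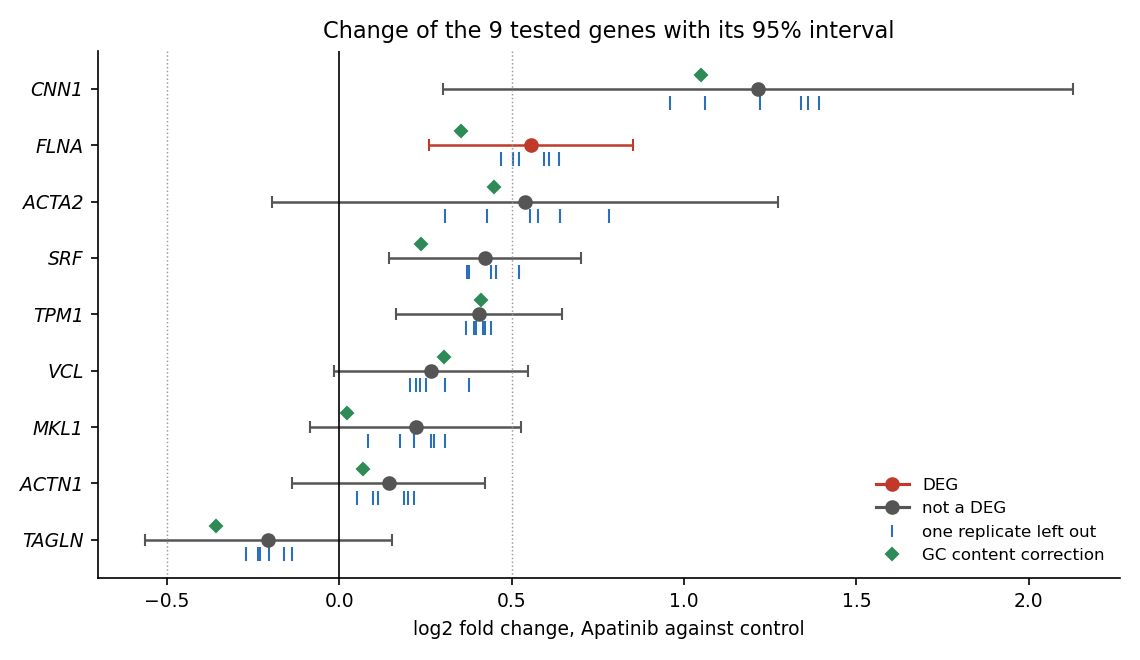
Log2 fold change of Apatinib against control for the 9 tested genes (points) with 95% intervals (bars), the values with one replicate left out (blue ticks) and with the GC correction (green diamonds). The dotted lines mark 0.5 in size. FLNA (red) is the DEG; the green diamonds of CNN1, FLNA, ACTA2, SRF, MKL1, ACTN1 and TAGLN sit to the left of their points (1.05, 0.35, 0.45, 0.24, 0.02, 0.07 and -0.36), and those of TPM1 and VCL do not (0.41 and 0.30).

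Other smooth muscle markers gave a reference for ACTA2, CNN1 and TAGLN. Of 8 such genes 5 were tested by edgeR, 0 were DEGs and 0 had an unadjusted p under 0.05, against 11.5% and 30.6% of all tested genes. With 5 genes, a count of 0 DEGs is near that background. Their summed expression was 86.4 to 107 CPM with Apatinib and 97.6 to 107 CPM in the control, with overlap. The largest parts of this sum were SMTN, at 46.1 to 64.4 CPM over the 6 libraries, and SYNM, at 28.6 to 35.6 CPM. KCNMB1 had 0 counts in every library, and PLN and DES had at most 2 and 5 counts. Of the other marker lists, epithelial genes (6 genes, KRT8 and KRT18 highest) summed to 126 to 158 CPM with Apatinib and 95.7 to 112 CPM in the control, and leukocyte genes to 2.75 to 4.01 and 4.50 to 5.44 CPM. The leukocyte sum holds CD68 at 0 or 1 counts, but CD68 was listed at 11.8, 8.57 and 6.78 FPKM with Apatinib and 3.30, 1.79 and 2.85 FPKM in the control, so the direction of that list depends on the unit. Adipocyte genes summed to 65.4 to 89.4 and 61.4 to 63.0 CPM, mesenchymal genes to 5164 to 6096 and 4308 to 4456 CPM, and endothelial genes to 15.2 to 17.4 and 13.9 to 16.2 CPM. KRT8, the adipocyte gene LPL, the mesenchymal gene COL3A1 and the endothelial gene VWF were DEGs that rose. The endothelial gene CDH5 was a DEG that fell, with a log2 fold change of -1.22 against 1.52 for VWF (edgeR FDR = 0.0242 and 0.0386). PECAM1 of the endothelial list was not found by its symbol. EPCAM and CDH1, which define epithelial cells, had at most 7 and 2 counts, and the leukocyte gene PTPRC had 0. The part of these markers in the results was not tested.

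Other genes of the pathway were read from 4 lists, of which 50 genes of 58 were tested and 10 were DEGs, against 11.5% of all tested genes (5.97% higher). Of 6 tested cofactors of SRF 1 was a DEG, which rose, a share near that of all genes. The median log2 fold change of the cofactors was -0.24, and -0.06 with the GC correction. The DEG was FHL2, a LIM protein that SRF controls and that binds SRF, which rose from 51.2 ± 1.40 to 91.5 ± 25.1 CPM (SD, n = 3 each). FHL2 had 80.3, 120 and 73.8 CPM with Apatinib, so that replicate 2 stood highest, and its log2 fold change was 0.84 (edgeR FDR = 0.0139). MKL2 (MRTFB), the close relative of MKL1, had 85.6, 84.4 and 98.5 CPM with Apatinib and 119, 126 and 108 CPM in the control, and its value on the log2 scale was -0.40 (edgeR FDR = 0.0530). MYOCD (myocardin), the cofactor particular to smooth and cardiac muscle, had 0 counts in every library. MKL2 and MYOCD were named after their values were seen.

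Other actin, myosin and stress fiber genes included 20 tested genes with 3 DEGs, all higher, where 11.5% of all tested genes were DEGs and 5.97% were higher, and a median of 0.19. That median was 0.08 without Apatinib replicate 1 and 0.04 with the GC correction. FLNC, the muscle filamin, rose from 182, 189 and 199 CPM in the control to 355, 310 and 296 CPM with Apatinib. The log2 fold change of FLNC was 0.75 (standard error 0.120, edgeR FDR = 0.00584), a call that held in all 6 fits that left out one replicate, and its exons overlap FLNC-AS1 on the opposite strand. MYLK, the kinase that phosphorylates myosin light chain, had 121, 80.0 and 122 CPM with Apatinib and 66.0, 63.1 and 64.1 CPM in the control (log2 fold change 0.74, edgeR FDR = 0.0161). ACTG1, cytoplasmic γ-actin, had 3628, 1866 and 3068 CPM with Apatinib and 1370, 1473 and 1684 CPM in the control. Apatinib replicate 2 was thus nearest to the controls, and the log2 fold change of ACTG1 was 0.92 (edgeR FDR = 0.0197). FHL2, MYLK and ACTG1 were not DEGs without control replicate 1 or without control replicate 2, nor were MYLK and ACTG1 without Apatinib replicate 1. In these fits their log2 fold changes were 0.65 to 0.90. ACTB, the β-actin gene, was named after its values were seen because Western blots often use its protein as a loading control. It had 4693, 2486 and 3993 CPM with Apatinib and 2535, 2689 and 3078 CPM in the control (log2 fold change 0.43, edgeR FDR = 0.176). Without Apatinib replicate 2 ACTB was a DEG (0.65, edgeR FDR = 0.0140), and without Apatinib replicate 1 its value was 0.23. ACTB and ACTG1 are near-identical and have many pseudogene copies, so their counts are possibly shared.

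All 16 genes of the adhesion partners were tested, and 3 of them, TGFB1I1, ZYX and PDLIM1, were DEGs, all higher, against the same 11.5% and 5.97% of all genes, with a list median of 0.18 (0.28 without control replicate 3). ILK, named after its values were seen, was tested on 6 to 18 counts but was listed at 73.5 FPKM or more in every library, so the deposited units conflict for it. TGFB1I1 (Hic-5), an adhesion LIM protein, had 168, 134 and 145 CPM with Apatinib and 92.7, 90.5 and 106 CPM in the control (log2 fold change 0.63, edgeR FDR = 0.0135). ZYX (zyxin), which assembles actin at adhesions, and PDLIM1, which binds α-actinin, had log2 fold changes of 0.53 and 0.52 (edgeR FDR = 0.0293 and 0.0268). TGFB1I1, ZYX and PDLIM1 were not DEGs without control replicate 1 or without control replicate 2. ZYX and PDLIM1 were none without Apatinib replicate 1, and ZYX none without Apatinib replicate 2. The log2 fold changes of the genes in the fits that lost their calls were 0.44 to 0.60. With the GC correction 0 of the 16 genes were DEGs, TGFB1I1 having 0.46 with an FDR of 0.0112. The immediate early targets of SRF held 8 tested genes, all with a log2 fold change above 0, against 8195 of all 16290 tested genes. Of these 8 genes FOSB, FOS and NR4A1 were DEGs with 3.80, 3.25 and 0.97 (edgeR FDR = 0.00148, 0.000315 and 0.0152). NR4A1, a nuclear receptor, was no longer a DEG without Apatinib replicate 1, control replicate 1 or control replicate 2. Its log2 fold change was 0.885 to 1.1 over the 6 fits that left out one replicate. EGR1, named after its values were seen, had 178 CPM in Apatinib replicate 2 against 23.0 and 26.2 in the other Apatinib replicates and 19.8 to 29.1 in the control. EGR3, MCL1, JUNB and IER2, also named after their values were seen, were likewise highest in Apatinib replicate 2, with 10.7, 295, 23.7 and 35.8 CPM, while at least 1 other Apatinib replicate of each lay within or below the controls. The median of the list was 1.03 with all libraries and 0.15 without Apatinib replicate 2.

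**Figure D4:**
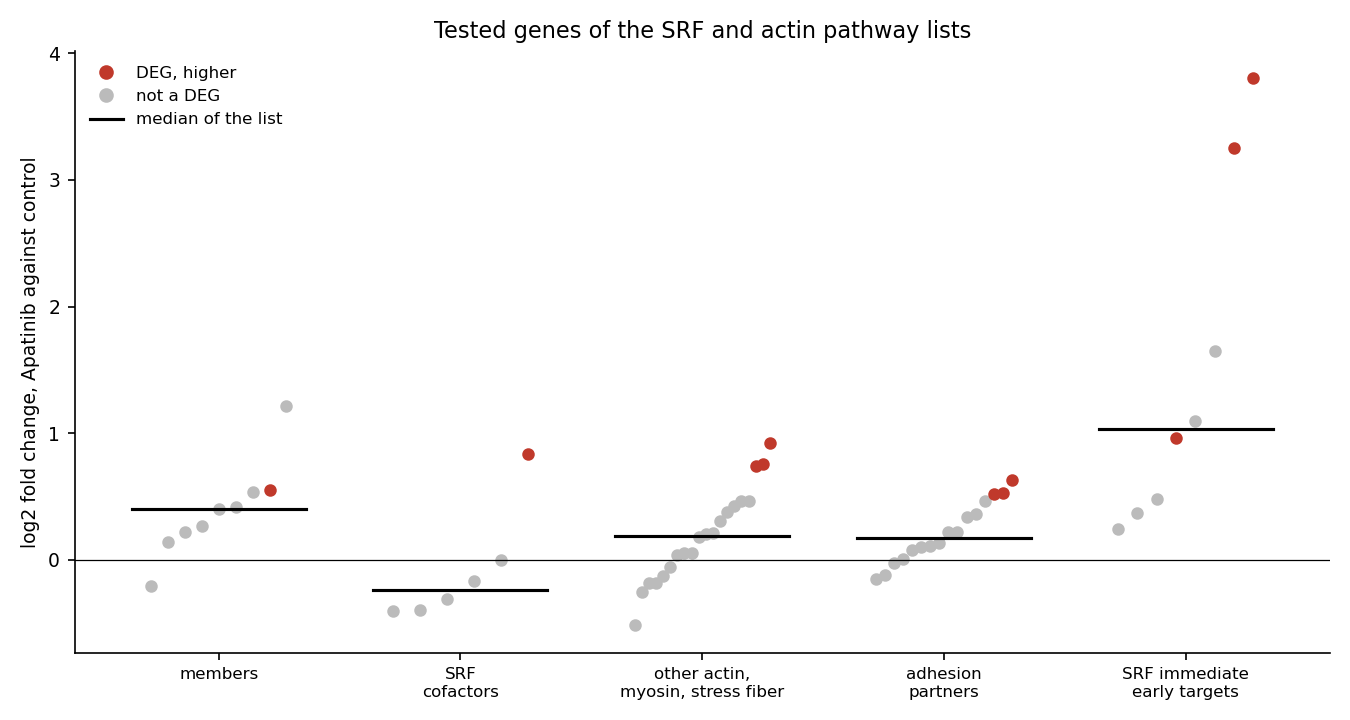
Log2 fold change of every tested gene of the set and of the 4 pathway lists, with DEGs, all of them higher, in red, other genes in gray and the list median as a black line. The set and the actin, adhesion and immediate early lists have medians of 0.41, 0.19, 0.18 and 1.03, and the cofactor list has a median of -0.24. Without Apatinib replicate 2 the immediate early median was 0.15.

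CArG boxes were counted in the promoters of the same lists as a description. Of the genes of the set and lists in the RefSeq table, a box was found at 5 of 11 higher DEGs (FLNA, FHL2, ACTG1, MYLK and TGFB1I1) and 6 of 42 tested genes that were not DEGs. Over all tested genes in the table the shares were 19 of 674 higher DEGs (2.82%), 8 of 673 lower DEGs (1.19%) and 146 of 10107 other genes (1.44%). The genes of the lists are known partners or targets of SRF, so a higher share than in all genes follows from how they were picked. The boxes of ACTG1, MYLK and TGFB1I1, the higher DEGs of the actin and adhesion lists with a box, are printed for comparison with that of FLNA.
ACTG1, chr17:81512859-81512918, minus strand: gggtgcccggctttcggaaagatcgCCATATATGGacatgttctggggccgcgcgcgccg
MYLK, chr3:123620608-123620667, minus strand: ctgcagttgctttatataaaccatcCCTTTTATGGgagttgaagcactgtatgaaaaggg
TGFB1I1, chr16:31473129-31473188, plus strand: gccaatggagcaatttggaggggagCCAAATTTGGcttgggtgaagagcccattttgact
The box began 94 bases before the start site in FLNA, in ACTG1 and in the 1 listed promoter of MYLK. In TGFB1I1 it began 51 bases before the start site of 1 of its 3 listed promoters. Which start sites SW872 uses was not tested, so the MYLK box need not belong to the promoter of the full-length kinase.

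The profile over the 6 libraries was also compared gene by gene, by the root mean square difference of log2 CPM centered on each gene's mean, among 10323 genes outside the set with at least 10 CPM. FLNA was nearest to BOK, LRP5 and SURF1, with differences of 0.0215, 0.0247 and 0.0306. SRF was nearest to PARP10, DFNB31 and IL10RB, with differences of 0.0274, 0.0321 and 0.0334. Between FLNA and SRF the difference was 0.0783, the smallest between FLNA and another gene of the set, and it was 0.426 between FLNA and TAGLN.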

How the data were processed

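RNA sequencing of 3 Apatinib and 3 control replicates of SW872 cells was analysed, with groups taken from the sample titles, which match the treatment field, although the protocol text of the labels names Apatinib for all 6 samples. The authors deposited counts, as whole numbers that were not normalized, and FPKM values. The submitters' processing notes list STAR 2.7.1a and hg19. The counting program, annotation and strand setting are not given in the sources used here. An extra column in the FPKM values of Apatinib replicate 1 (1 column) was not used. Genes were matched by the symbols in the table.

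Counts were analysed with edgeR 4.0.16 in R 4.3.3. The filterByExpr function kept 16290 genes, libraries were scaled by TMM (factors 0.952 to 1.03), and the quasi-likelihood F test was applied without a replicate block. The standard error is the log2 fold change divided by the square root of F. Counting error is part of the model. Total counts (17043314 to 22067558) limit precision for genes with few counts. Alternatives were DESeq2 1.42.0, RLE scaling, other filters, the replicate block, each replicate left out, control replicates 1 and 2 summed, and limma 3.58.1 on log2-transformed FPKM (pseudocount 1 or 0.1, genes above a mean of 0.5, or unfiltered). A loess correction for GC content of the longest GENCODE 29 transcript, known for 97.1% of tested genes, was chosen after seeing the data.

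All 10 genes of the set and every DEG of 4 hand-written lists are named by rule, and 1 further list is not reported here, for a reason unrelated to its values, so that counts over the lists do not cover the whole pathway. For FLNA, the gene of the set with the smallest p, and for SRF, the 3 nearest profiles are named. The set and the lists were chosen with earlier results of these data known.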

Additional observations from a re-analysis of the deposited data

How the results depend on the processing

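Most calls were lost without control replicate 1 or without control replicate 2, and also under some other settings. Leaving out single replicates gave 275 (without control replicate 1; 300 without control replicate 2 and 795 without Apatinib replicate 1) to 2594 DEGs over all genes (without control replicate 3) against 1866, 0 to 2 in the set against 1, 0 to 1 SRF cofactors against 1, 1 to 5 other actin genes against 3, and 0 to 4 adhesion partners against 3. With control replicates 1 and 2 summed there were 292 DEGs over all genes, 0 in the set, 0 cofactors, 1 other actin gene and 0 adhesion partners. In limma on log2(FPKM + 1) there were 796 DEGs over all genes and 2 in the set, and on log2(FPKM + 0.1) 810 and 2. Without the filter limma gave 9 over all genes and 0 in the set and in each of the 4 lists. glmTreat, which tests against the fold change limit, gave 74 over all genes, 0 in the set, 0 cofactors, 0 other actin genes and 0 adhesion partners. The GC correction gave 0 in the set, 0 adhesion partners, 4 other actin genes, 1 cofactor, 3 immediate early targets and 1377 over all genes. The FDR limit alone gave 2 in the set and 5 other actin genes. Without the filter on low counts 5 immediate early targets were DEGs against 3. The causes of these shifts were not tested.

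The deviations of same-numbered samples from their group means correlated at -0.259, 0.0808 and -0.220. Each group has 3 replicates and control replicates 1 and 2 were nearly alike, so these values cannot decide whether replicate numbers pair the samples. With the replicate block there were 2215 DEGs, 1 of them in the set, and the FDR of TPM1 was 0.129. Of the 9 tested genes of the set and the 10 DEGs of the lists, 0 reversed direction under the alternatives run; EGR1, EGR3, MCL1, JUNB, IER2 and the marker genes were not run. In the filtered limma fit on log2(FPKM + 1) the median of the cofactors was -0.14 and that of the immediate early targets 0.55, and without the filter the median of the set was 0.26. CNN1 had too few counts or too low an FPKM for the filter of 10 counts and the filtered limma fits, and its change is the least precise of the set.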
